A study of Mus musculus with 16 samples.

Results

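The insulin receptor signalling genes described here are 10 genes of the pathway from the receptor to its best known transcription factor: Insr, Irs1, Irs2, Grb7, Grb14, Pik3r1, Pik3ca, Akt1, Akt2 and Foxo1. Their rows were found by symbol in the deposited tables. Each of the 10 symbols stood on 1 row of the 55487 rows in the table, and all 10 were among the 13905 genes that passed the filter on low counts. RNA was sequenced from livers of mice fed a high-fat diet, to compare groups that the series names for splice isoforms of the stress kinase JNK in hepatocytes. There were 6 Flpo libraries (LJ1J27b), 5 Cre libraries (LJ1J27a) and 5 GFP libraries (LJ1J2control). All 3 groups carry the same labels for genotype, written J1 J2 lf/lf, and for strain, written C57/Bl6J, so the GFP libraries share the conditional alleles. The series calls the mice hepatocyte-specific, while the RNA is from whole liver, and the labels give no age, sex, time of harvest or way in which Cre and Flpo were delivered. Counts were per gene, so the exon choice that names the groups could not be checked here.

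Insulin binds its receptor on the hepatocyte surface, and the activated receptor kinase phosphorylates the docking proteins IRS1 and IRS2. These recruit phosphoinositide 3-kinase, an enzyme made of a regulatory and a catalytic subunit, whose lipid product brings AKT kinases to the membrane and activates them. In liver, active AKT keeps the transcription factor FOXO1 out of the nucleus, which lowers the transcription of gluconeogenic genes and of Irs2 itself and so links feeding to glucose output. GRB7 and GRB14 belong to one family of adaptor proteins, of which GRB14 binds the activated receptor and inhibits its kinase. JNK is known to phosphorylate IRS1 on serine, a modification linked to insulin resistance in obesity.

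Of the 10 genes, 3 were called in both Cre comparisons, and the share of all tested genes called in both was not counted. Irs2 and Grb14 were higher in Cre than in GFP livers and Pik3r1 was lower, where 3.97% of all tested genes were higher and 5.58% lower. In Flpo against Cre livers the same 3 genes differed in the opposite sense and Foxo1 was also higher in Flpo, where 7.45% of all tested genes were higher and 6.26% lower. None of the 10 passed in Flpo against GFP livers, where 0.0288% of all tested genes did. Calls were made at an adjusted p under 0.05 in edgeR's quasi-likelihood test. The promoters of these 3 genes are shown first because they were called in both Cre comparisons, and that of Irs1, which was not called, is shown beside that of its paralogue Irs2. Each line gives the 250 bases before a RefSeq transcription start (build GRCm38.p6), read 5′ to 3′ on the gene's own minus strand. Capitals mark matches to 5 short motifs that were searched on both strands: the E-box CACGTG, the insulin response element TTGTTTTG, the forkhead motif TGTTTAC, the cyclic AMP response element TGACGTCA and the AP-1 motif TGANTCA.
Irs2, chr8:11008930-11009179: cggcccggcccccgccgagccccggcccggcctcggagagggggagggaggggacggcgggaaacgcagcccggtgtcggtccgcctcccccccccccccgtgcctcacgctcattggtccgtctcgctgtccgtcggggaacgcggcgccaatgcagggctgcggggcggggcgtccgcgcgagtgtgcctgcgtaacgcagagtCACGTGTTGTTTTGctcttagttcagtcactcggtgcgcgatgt
Irs1, chr1:82291440-82291689: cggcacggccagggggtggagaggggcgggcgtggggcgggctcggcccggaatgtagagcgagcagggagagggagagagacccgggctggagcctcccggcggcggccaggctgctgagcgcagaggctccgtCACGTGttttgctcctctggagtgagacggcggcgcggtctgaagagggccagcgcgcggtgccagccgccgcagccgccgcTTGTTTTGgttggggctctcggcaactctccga
Grb14, chr2:65022767-65023016: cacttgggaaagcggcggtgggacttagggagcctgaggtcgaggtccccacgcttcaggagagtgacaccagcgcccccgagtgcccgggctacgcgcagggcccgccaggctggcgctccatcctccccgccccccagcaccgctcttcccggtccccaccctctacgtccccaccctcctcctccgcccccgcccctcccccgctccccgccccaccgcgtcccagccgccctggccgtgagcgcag
Pik3r1, first start, chr13:101768218-101768467: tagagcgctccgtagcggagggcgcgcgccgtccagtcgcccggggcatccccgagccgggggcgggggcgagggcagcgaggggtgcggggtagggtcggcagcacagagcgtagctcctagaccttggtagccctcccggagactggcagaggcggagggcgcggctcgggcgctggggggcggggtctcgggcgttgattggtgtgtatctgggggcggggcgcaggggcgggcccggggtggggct
Pik3r1, second start, chr13:101692631-101692880: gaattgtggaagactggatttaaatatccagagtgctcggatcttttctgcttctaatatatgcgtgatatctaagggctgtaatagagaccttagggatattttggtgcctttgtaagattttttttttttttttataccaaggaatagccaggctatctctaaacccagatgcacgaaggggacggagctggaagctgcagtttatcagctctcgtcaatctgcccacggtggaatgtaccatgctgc

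Irs2 held an E-box from 44 to 39 bases before the start, followed without a gap by an insulin response element from 38 to 31 bases before it. Irs1 held the same pair of motifs, but with the E-box from 115 to 110 and the insulin response element from 33 to 26 bases before the start. Of 32851 windows of this length before mouse gene starts, 6.02% held CACGTG and 2.21% held TTGTTTTG. TGTTTAC was in 3.17% of windows, TGACGTCA in 1.55% and TGANTCA in 6.75%. The Grb14 window and both Pik3r1 windows held none of the 5 motifs, which says only that these letters are not in these stretches. The Grb14 window and the window of the second Pik3r1 start lie inside the annotated spans of their genes, not upstream of them. RefSeq windows were found for 8 of the 10 genes, 13 windows in all. Among the windows not printed, Pik3ca held TGAGTCA from 97 to 91 bases before its start and 1 of the Akt1 starts held TGTTTAC from 161 to 155 bases before it.

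Total estimated counts lay between 27929393 and 36043322 per library, with 17067 to 18257 genes above 0. The lowest count behind a member was 175, for Irs1 and for Irs2 in 1 library each. Hepatocyte markers were abundant in every library, with a summed level of 66050 to 95450 TPM over 8 genes. Cre libraries also differed in other respects, though most of the ranges overlapped those of Flpo or GFP libraries. The values that follow belong beside each Cre comparison below. A clock score was computed as the mean log2 CPM of Dbp, Tef, Per2, Per3, Nr1d1, Nr1d2 and Ciart minus that of Arntl, Npas2, Clock and Cry1. It ran from 2.88 to 4.58 in Flpo, from 0.313 to 2.84 in Cre and from 1.60 to 3.68 in GFP libraries. Not all of its genes moved with it. In Flpo against Cre, Dbp, Tef, Per3, Nr1d2 and Ciart were called higher and Arntl and Clock lower, as in the score. Nr1d1 went the other way at -1.23 (edgeR adjusted p = 0.00896), as did the uncalled Cry1 at 0.28 (edgeR adjusted p = 0.489). The share of counts taken by Mup genes was 1.95% to 6.49% in Flpo, 5.65% to 13.8% in Cre and 2.24% to 3.91% in GFP libraries. Stellate cell markers summed to 105 to 156 TPM in Flpo, 48.2 to 94.7 TPM in Cre and 84.3 to 143 TPM in GFP libraries, and 4 of the 8 fell in Cre against GFP (edgeR quasi-likelihood test, adjusted p of 0.0166 or lower). Adipocyte markers summed to 15.9 to 51.2 TPM in Flpo, 1.94 to 4.08 TPM in Cre and 10.8 to 29.1 TPM in GFP libraries over 5 genes, of which 1 was abundant enough to test. That gene was Cfd, with a mean of 15.6 CPM in Flpo, 1.42 CPM in Cre and 10.9 CPM in GFP libraries. Adipoq, Lep, Plin1 and Retn did not pass the filter on low counts, so the sum does not show a fall across adipocyte markers. None of the markers above was at 0 in every library, and their part in the results was not tested, apart from the fit with the clock score. In whole liver, fewer cells of a type and less RNA per cell cannot be told apart. The running numbers in the titles follow the groups, so a batch cannot be told apart from the group. The titles do not say that each library is a separate mouse, which limits the p-values to the spread among these libraries.

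Levels were first set against each other per gene length, as TPM. In Flpo livers the adaptor gene Grb7 was the most abundant of the 10 at 39.5 ± 2.75 TPM (SD, n = 6), and Irs1 the least at 1.25 ± 0.294 TPM (SD, n = 6). Grb7 was above 85.4% of all tested genes in mean TPM there, and Irs1 above 24.7%. From high to low, Flpo livers had Grb7, Akt2, Grb14, Pik3r1, Akt1, Insr, Foxo1, Pik3ca, Irs2 and Irs1. Neighbours in this order overlapped in their libraries' ranges except at 3 steps: from Akt2, at 39.0 TPM, to Grb14, at 30.01 TPM, from Insr, at 18.9 TPM, to Foxo1, at 7.50 TPM, and from Pik3ca, at 6.39 TPM, to Irs2, at 1.89 TPM. In Cre livers Grb14, at 41.2 TPM, was placed first, just above Grb7 at 40.4 TPM, while Pik3r1, at 9.13 TPM, was placed below Akt1 and Insr. Irs2, at 5.01 TPM, stood above Foxo1, at 3.96 TPM, in Cre livers, although their ranges overlapped. Neighbours in Cre livers were apart only below Akt2, at 35.1 TPM, and below Foxo1. GFP livers had nearly the order of Flpo livers, with Pik3ca at 6.24 TPM above Foxo1 at 5.22 TPM, a pair whose ranges overlapped, and neighbours were apart only below Insr, at 15.6 TPM, and below Foxo1. Irs2 was above 30.8% of tested genes in Flpo livers, 51.5% in Cre livers and 30.7% in GFP livers. Pik3r1 was above 80.4% in Flpo, 64.1% in Cre and 78.4% in GFP livers.

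**Figure D1:**
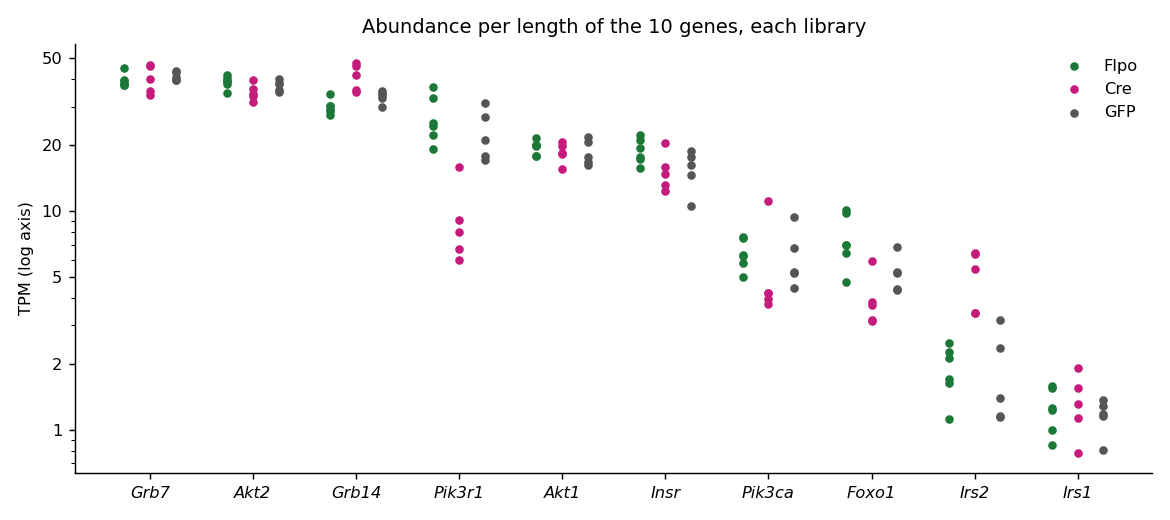
TPM of the 10 genes in each library on a log axis, 1 point per library, with Flpo, Cre and GFP side by side for each gene. Genes are ordered by their mean TPM over all 16 libraries. Pik3r1 in Cre libraries (5.99 to 15.9 TPM) lies below all Flpo and GFP libraries, and Irs2 in Cre libraries (3.40 to 6.42 TPM) lies above them.

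The receptor gene Insr did not pass in any comparison. Its CPM, the count scaled to a common library size with TMM factors, was 114 ± 12.2 in Flpo livers (SD, n = 6), 106 ± 13.5 in Cre livers (SD, n = 5) and 95.4 ± 16.1 in GFP livers (SD, n = 5). The groups overlapped, and the log2 fold change was 0.15 in Cre against GFP (95% interval -0.10 to 0.41, adjusted p = 0.476, edgeR quasi-likelihood test) and 0.26 in Flpo against GFP (0.01 to 0.50, adjusted p = 0.497). With limma on log2(TPM + 1) the Cre against GFP value was -0.02, while with library totals in place of TMM factors it was 0.01. Grb7, the adaptor of the same family as Grb14, averaged 69.8 ± 6.85 CPM in Flpo livers (SD, n = 6), 82.0 ± 8.47 CPM in Cre livers (SD, n = 5) and 74.5 ± 5.60 CPM in GFP livers (SD, n = 5). It was not called, with a log2 fold change of -0.23 in Flpo against Cre (interval -0.41 to -0.05, edgeR adjusted p = 0.0840). Without Flpo library 2, whose 83.2 CPM stood above the 63.5 to 68.9 CPM of the other Flpo libraries, Grb7 passed in that comparison at -0.31 (edgeR adjusted p = 0.0227).

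Grb14, which encodes the adaptor that inhibits the receptor kinase, ran from 35.5 CPM through a median of 38.7 CPM to 44.1 CPM in Flpo libraries. It had 63.5, 53.7, 59.9, 61.6 and 70.0 CPM in Cre libraries, against 42.6, 43.1, 48.6, 44.3 and 41.7 CPM in GFP libraries. Every Cre library lay above every other library, while Flpo and GFP libraries overlapped. Grb14 rose 1.40-fold in Cre against GFP (log2 fold change 0.49, SE 0.09, adjusted p = 0.00182, edgeR quasi-likelihood test) and was lower in Flpo than in Cre livers (log2 fold change -0.66, SE 0.08, edgeR adjusted p = 5.81e-05). Against GFP, Flpo livers gave -0.17 (interval -0.35 to -0.00, edgeR adjusted p = 0.513). Grb14 had the smallest spread of the called genes, with a coefficient of variation of 8.82% in Flpo, 9.54% in Cre and 6.17% in GFP livers. The gene lies on the minus strand at chr2:64912476-65024987 (mm10) and the reference annotation overlaps it with no other gene.

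The level of the inhibitory adaptor relative to its receptor was followed within each library as the TPM ratio of Grb14 to Insr, which library scaling does not touch. The ratio ran from 1.31 through a median of 1.60 to 1.93 in Flpo libraries. It was 2.84, 2.85, 2.73, 2.31 and 2.90 in Cre libraries, against 1.82, 1.85, 3.26, 2.17 and 2.05 in GFP libraries. Flpo libraries all lay below Cre libraries, while GFP libraries spanned both, with GFP library 3, which had the lowest Insr, above all others. On the log2 scale the mean ratio differed by -0.77 in Flpo against Cre (two-sided exact permutation test, p = 0.00433, adjusted p = 0.0357 over the 9 ratio comparisons made) and by -0.44 in Flpo against GFP (exact p = 0.0130, adjusted p = 0.0357). In Cre against GFP the difference was 0.32 (exact p = 0.103, adjusted p = 0.186), and without GFP library 3 it was 0.47 (adjusted p = 0.0476). The adjusted p of the passing pair reached 0.0571 in Flpo against Cre and 0.0714 in Flpo against GFP when 1 library was left out. The smallest p that these two-sided tests can give is 0.00794 with 5 against 5 libraries and 0.00433 with 6 against 5. The Flpo against Cre value of this ratio stood at that limit.

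**Figure D2:**
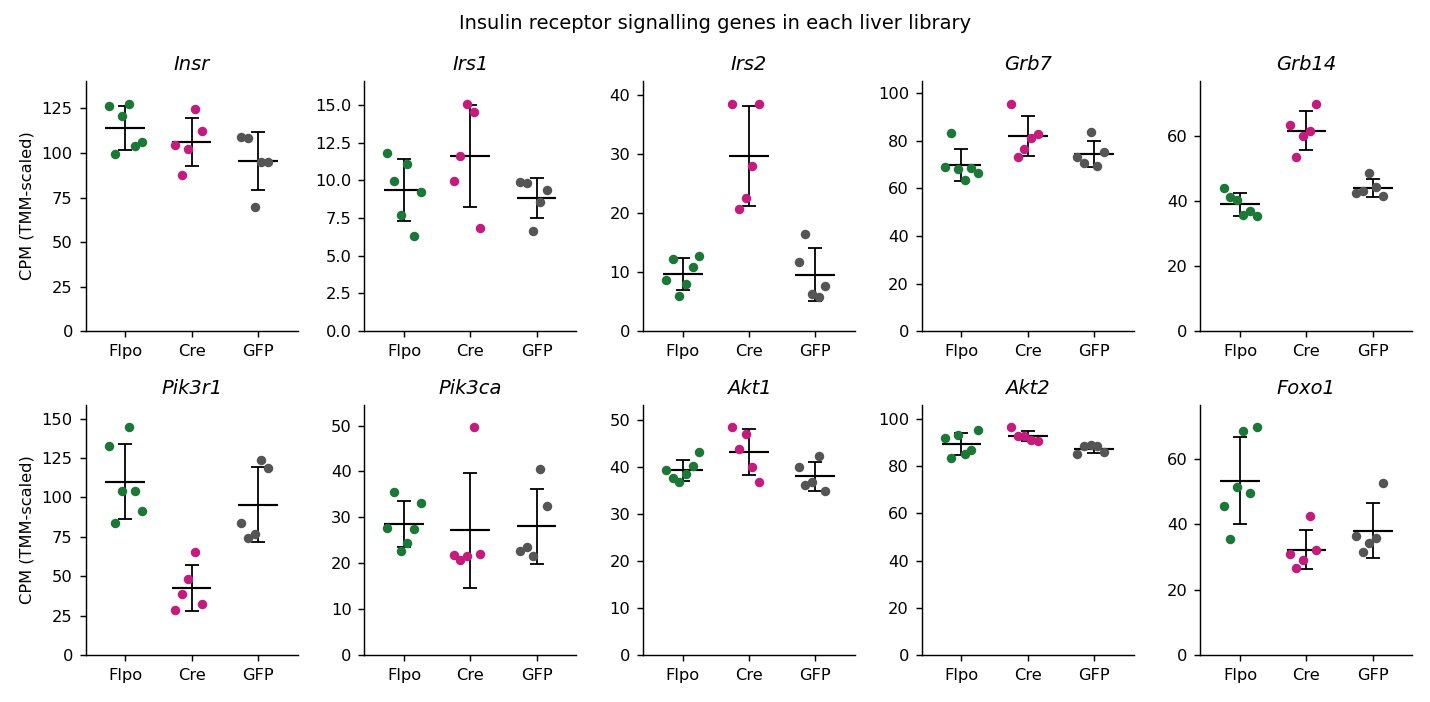
TMM-scaled CPM of each of the 10 genes in each library, 1 point per library, with a bar at the mean and whiskers of 1 SD for Flpo (n = 6), Cre (n = 5) and GFP (n = 5). Cre libraries lie apart from both other groups in Irs2 (20.7 to 38.5 CPM), Grb14 (53.7 to 70.0 CPM) and Pik3r1 (28.7 to 65.4 CPM), and the groups overlap in Foxo1.

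Irs2, which encodes the docking protein whose liver transcript is known to rise in fasting, ran from 5.90 CPM through a median of 9.72 CPM to 12.7 CPM in Flpo libraries. It had 38.4, 20.7, 22.5, 28.0 and 38.5 CPM in Cre libraries, against 11.6, 16.4, 6.37, 5.70 and 7.68 CPM in GFP libraries. All Cre libraries lay above all Flpo and GFP libraries. Irs2 rose 3.09-fold in Cre against GFP (log2 fold change 1.63, SE 0.29, adjusted p = 0.00204, edgeR quasi-likelihood test) and fell in Flpo against Cre (log2 fold change -1.61, SE 0.27, edgeR adjusted p = 0.000953). Flpo against GFP livers gave 0.02 with an interval of -0.56 to 0.59 (edgeR adjusted p = 0.988). Irs2 lies at chr8:10984681-11008458 on the minus strand of mm10, where the annotated transcript 9530052E02Rik overlaps it on the plus strand. The use of strand in counting is not given in the sources used here, so reads of the overlapping pair cannot be told apart.

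Irs1, the docking protein gene that acts beside Irs2, averaged 9.36 ± 2.06 CPM in Flpo livers (SD, n = 6), 11.6 ± 3.37 CPM in Cre livers (SD, n = 5) and 8.83 ± 1.34 CPM in GFP livers (SD, n = 5). The groups overlapped, and its log2 fold change in Cre against GFP was 0.40 (interval -0.03 to 0.82, edgeR adjusted p = 0.246). The TPM ratio of Irs2 to Irs1 ran from 1.05 through a median of 1.46 to 2.51 in Flpo libraries. It was 5.65, 2.61, 2.19, 2.84 and 8.21 in Cre libraries, against 1.73, 2.47, 1.42, 0.978 and 1.21 in GFP libraries. The ranges overlapped only at the edge, where 1 Flpo library and 1 GFP library exceeded the lowest Cre library. The mean log2 ratio differed by 1.34 in Cre against GFP (two-sided exact permutation test, p = 0.0159, adjusted p = 0.0357) and by -1.32 in Flpo against Cre (exact p = 0.00866, adjusted p = 0.0357). It differed by 0.02 in Flpo against GFP (exact p = 0.957). Leaving out 1 library raised the adjusted p to at most 0.0714 in Cre against GFP and 0.0571 in Flpo against Cre.

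Pik3r1, which encodes the regulatory subunits p85α, p55α and p50α of phosphoinositide 3-kinase, ran from 83.5 CPM through a median of 103.8 CPM to 144.4 CPM in Flpo libraries. It had 28.7, 38.8, 48.0, 65.4 and 32.5 CPM in Cre libraries, against 83.7, 74.3, 76.8, 123.5 and 118.9 CPM in GFP libraries. All Cre libraries lay below all other libraries, and Cre library 4 was the highest of them. Pik3r1 fell by 1.16 on the log2 scale in Cre against GFP (SE 0.22, adjusted p = 0.00341, edgeR quasi-likelihood test) and rose 2.58-fold in Flpo against Cre (log2 fold change 1.36, SE 0.21, edgeR adjusted p = 0.000552). In Flpo against GFP it gave 0.20 (interval -0.24 to 0.64, edgeR adjusted p = 0.787). The gene, at chr13:101680563-101768217 on the minus strand of mm10, has 4 coding transcripts in the reference annotation, and the gene-level counts do not separate their products. The annotated gene Gm36638 overlaps Pik3r1 on the same strand. Pik3ca, which encodes a catalytic subunit, averaged 28.5 ± 4.96 CPM in Flpo livers (SD, n = 6), 27.1 ± 12.6 CPM in Cre livers (SD, n = 5) and 28.1 ± 8.16 CPM in GFP livers (SD, n = 5). Cre library 4, at 49.6 CPM, stood above the other 4 Cre libraries, which had 20.7 to 22.1 CPM, and without it the Cre against GFP value was -0.38 in place of -0.05. Pik3ca was not called in any comparison.

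Some libraries paired a high Irs2 with a low Pik3r1 within their own group too. Cre libraries 1 and 5 had the highest Irs2, at 38.4 and 38.5 CPM, and the lowest Pik3r1, at 28.7 and 32.5 CPM. GFP library 2 had the highest Irs2 of its group, at 16.4 CPM, and the lowest Pik3r1, at 74.3 CPM, but GFP library 3 was low in both, at 6.37 and 76.8 CPM. Cre library 4, with 65.4 CPM of Pik3r1, was also the Cre library with the highest clock score, 2.84 against 0.313 to 1.08 in the other 4. With the clock score as a covariate in the edgeR quasi-likelihood fit, Irs2 and Grb14 passed in Cre against GFP at 1.38 (adjusted p = 0.0341) and 0.49 (adjusted p = 0.0319), while Pik3r1 gave -0.89 (adjusted p = 0.0833). In Flpo against Cre, whose clock scores did not overlap, none of the 4 calls passed with the covariate: Irs2 gave -1.09 (edgeR adjusted p = 0.432), Grb14 -0.66 (0.0702), Pik3r1 0.92 (0.345) and Foxo1 0.43 (0.721). All of these kept the direction of the fit without it. Calls also fell over all 13905 tested genes, from 552 higher and 776 lower to 84 and 179 in Cre against GFP. In Flpo against Cre they fell from 1036 higher and 870 lower to 26 and 6.

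**Figure D3:**
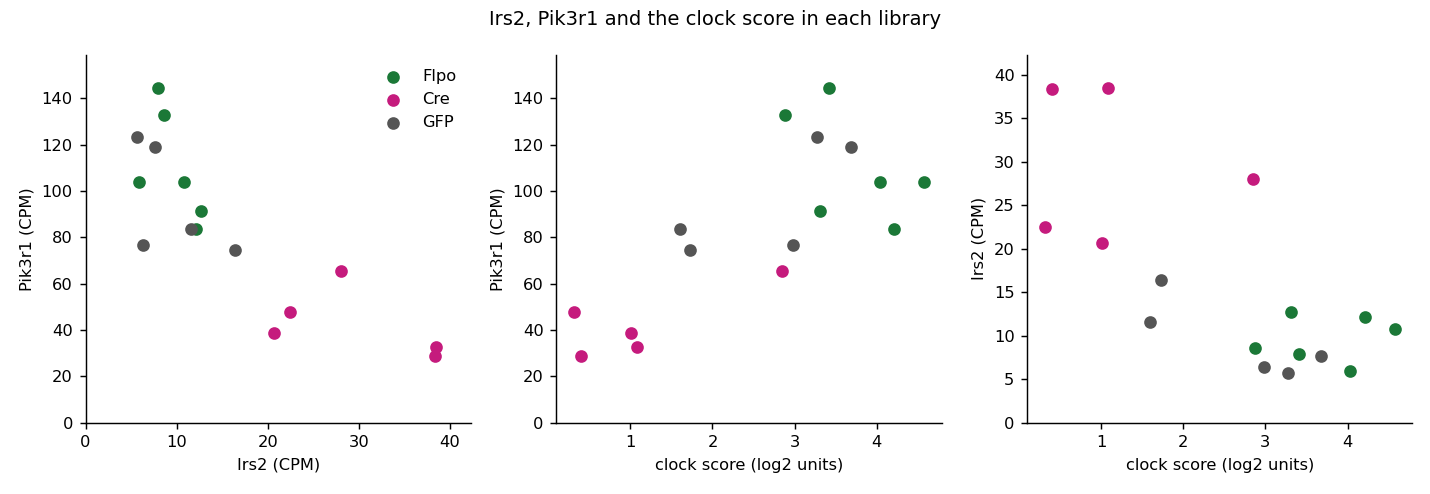
Pik3r1 against Irs2, Pik3r1 against the clock score and Irs2 against the clock score in each library, in CPM and log2 units, with points coloured by group (Flpo, Cre, GFP). Cre libraries sit at high Irs2 and low Pik3r1, and Cre library 4, with a clock score of 2.84, lies near the Flpo and GFP libraries on the clock axis while its Irs2 (28.0 CPM) stays above theirs.

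The AKT genes, which encode the kinases downstream of phosphoinositide 3-kinase, differed little between the groups. Akt2, the main isoform of insulin action in liver, had 96.4, 92.7, 92.9, 91.3 and 90.7 CPM in Cre libraries, against 85.2, 88.4, 88.8, 88.4 and 86.1 CPM in GFP libraries. These groups did not overlap, yet the difference was small and not called (log2 fold change 0.09, interval -0.04 to 0.22, edgeR adjusted p = 0.431). With library totals in place of TMM factors it was -0.06, so the direction depends on the scaling. Akt1 averaged 39.3 ± 2.24 CPM in Flpo livers (SD, n = 6), 43.2 ± 4.86 CPM in Cre livers (SD, n = 5) and 38.0 ± 3.04 CPM in GFP livers (SD, n = 5), and no comparison passed. The TPM ratio of Akt2 to Akt1 had medians of 1.95 in Flpo, 1.86 in Cre and 2.13 in GFP libraries. Its log2 differences were 0.08 in Flpo against Cre, -0.02 in Flpo against GFP and -0.09 in Cre against GFP, with adjusted p of 0.373, 0.862 and 0.373 in that order (two-sided exact permutation tests).

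Foxo1, which encodes the transcription factor restrained by AKT, differed between the 2 recombinase groups. It ran from 35.5 CPM through a median of 50.4 CPM to 69.6 CPM in Flpo libraries. Cre libraries had 30.9, 26.7, 28.9, 42.4 and 32.2 CPM, and GFP libraries 36.3, 31.6, 34.2, 35.7 and 52.5 CPM. Flpo libraries reached highest, but 1 Flpo library lay below the highest Cre library, and GFP libraries overlapped both groups. Foxo1 rose 1.65-fold in Flpo against Cre (log2 fold change 0.73, SE 0.17, adjusted p = 0.00989, edgeR quasi-likelihood test). It was not called in Flpo against GFP (0.49, interval 0.12 to 0.85, edgeR adjusted p = 0.398) or in Cre against GFP (-0.24, interval -0.62 to 0.14, edgeR adjusted p = 0.455). Foxo1 lies at chr3:52268336-52353221 on the plus strand of mm10 and overlaps the antisense gene Gm20402 and, on its own strand, Gm38034.

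Counted together, 2 of the 10 genes rose and 1 fell in Cre against GFP livers, and 2 rose and 2 fell in Flpo against Cre livers. In Flpo against GFP, 0 of the 10 passed with edgeR and 0 with DESeq2. Of all 13905 genes tested, edgeR called 4 in that comparison, and DESeq2 called 24 higher and 46 lower. An unadjusted edgeR p under 0.05 was found for 3 of the 10 genes and for 1353 of the 13905. The median log2 fold change of the 10 genes was -0.10 in Flpo against Cre, 0.04 in Flpo against GFP and 0.15 in Cre against GFP, beside -0.00, -0.01 and 0.00 over all genes. Each pair of comparisons shares a group of libraries, so their values are not independent. Library totals in place of TMM factors shifted the median of all genes to -0.14 in Cre against GFP and 0.13 in Flpo against Cre, so the balance of calls depends on the scaling. In Cre against GFP 552 genes were higher and 776 lower with TMM, and 300 and 1656 with library totals. In Flpo against Cre 1036 were higher and 870 lower with TMM, and 1810 and 454 with library totals. The calls of Irs2, Grb14, Pik3r1 and Foxo1 held under both scalings.

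**Figure D4:**
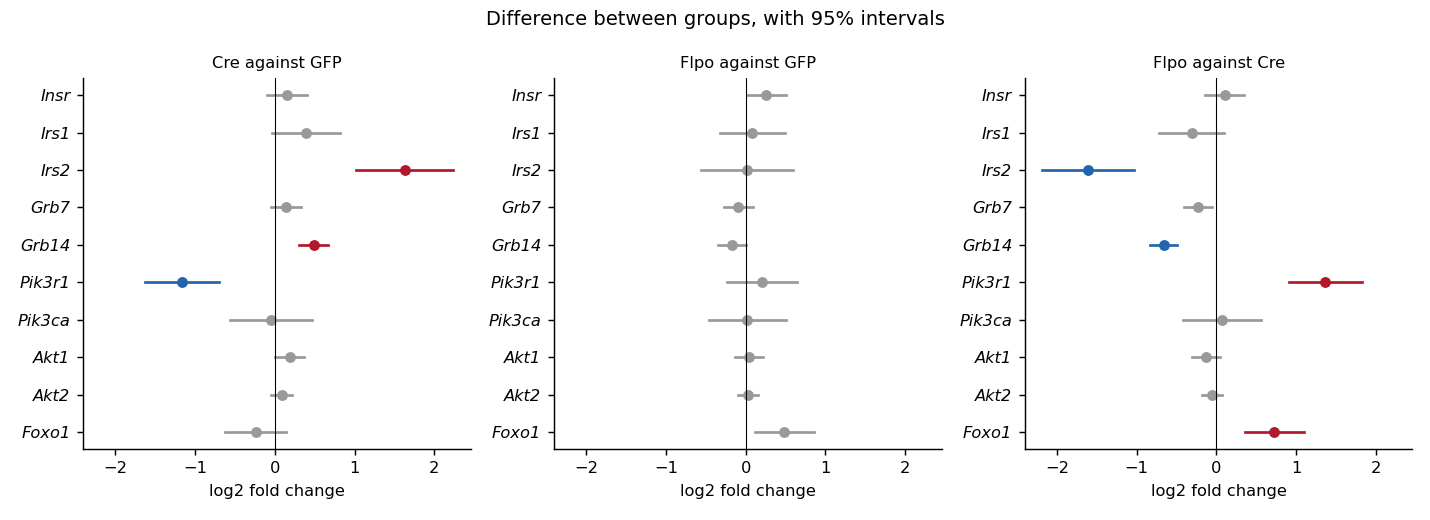
Log2 fold changes of the 10 genes with 95% intervals for the 3 comparisons between groups (edgeR quasi-likelihood fit of 16 libraries), coloured red where higher and blue where lower at an adjusted p under 0.05 and grey otherwise. Irs2, Grb14 and Pik3r1 are coloured in both Cre comparisons and lie near 0 in Flpo against GFP, while the small values of Grb7 and Akt2 in Cre against GFP change sign with library totals, and those of Grb7, Akt2, Akt1 and Insr with limma on log2(TPM + 1).

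Other genes of the pathway were taken from a list of 73, of which 68 passed the filter on low counts. In Cre against GFP, 5 of the 68 rose and 1 fell, where 3.97% of all tested genes were higher and 5.58% lower, and the median log2 fold change of the 68 was 0.02. In Flpo against GFP, 0 of 68 passed with edgeR, where 0.0288% of all tested genes did. In Flpo against Cre, 6 rose and 8 fell, where 7.45% of all tested genes were higher and 6.26% lower, and the median was 0.04. Of 16 genes listed as brakes of the pathway or for insulin clearance, 2 rose in Cre against GFP. One was Socs3, whose protein targets IRS proteins and cytokine receptors. The other was Ceacam1, whose protein promotes insulin clearance in liver and which is not counted here as a brake on the receptor's signal. Socs3 had a mean of 10.5 ± 5.07 CPM in Cre livers (SD, n = 5) and 4.73 ± 1.28 CPM in GFP livers (SD, n = 5), a 2.23-fold rise (adjusted p = 0.0176, edgeR quasi-likelihood test). Ceacam1 rose 1.44-fold in Cre against GFP (edgeR adjusted p = 0.00558). Both were lower in Flpo than in Cre, Socs3 at -1.43 and Ceacam1 at -0.67 on the log2 scale (edgeR adjusted p = 0.00221 and 0.000405). Trib3, an inhibitor of AKT, was also lower in Flpo than in Cre, at -0.90 (edgeR adjusted p = 0.0259), but not without Cre library 1, 2 or 5 or Flpo library 4 (edgeR adjusted p of 0.0511 to 0.0576), with library totals (-0.76, edgeR adjusted p = 0.0513) or on log2(TPM + 1) (-0.59, limma adjusted p = 0.0635). On log2(TPM + 1), Ceacam1 did not pass in Cre against GFP (0.33, limma adjusted p = 0.116). The phosphatase gene Ptpn1 was not called, with a log2 fold change of 0.05 (interval -0.23 to 0.32) in Cre against GFP, a direction that changed with the scaling.

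Among the 15 genes of the mTOR branch, Rictor, a defining subunit of the complex that phosphorylates AKT, rose 1.52-fold in Cre against GFP (edgeR adjusted p = 0.00346) and was lower in Flpo than in Cre at -0.45 (edgeR adjusted p = 0.0118). Rictor did not pass on log2(TPM + 1) in Cre against GFP (0.25, limma adjusted p = 0.109) and in Flpo against Cre neither on log2(TPM + 1) (-0.15, limma adjusted p = 0.302) nor with library totals (-0.31, edgeR adjusted p = 0.0861). Mtor itself gave 0.10 in Cre against GFP (interval -0.19 to 0.39). None of the 12 tested receptor partners was called in Cre against GFP, where 3.97% of all tested genes were higher and 5.58% lower. Gab1, a docking protein gene among them, was higher in Flpo than in Cre at 0.50 (edgeR adjusted p = 0.0213). Pik3cb, the gene of another catalytic subunit, was higher in Flpo than in Cre at 0.63 (edgeR adjusted p = 0.00818). Among the AKT substrates, Tbc1d4 at 0.77 and Foxo3 at 0.48 were higher in Flpo than in Cre (edgeR adjusted p = 0.0213 and 0.0239). Calls in Flpo against Cre were lost for Gab1 without Cre library 2 or 3 or Flpo library 5 (edgeR adjusted p up to 0.0614). Tbc1d4 lost its call without Cre library 2 or 3 or Flpo library 1 (up to 0.0594), and Foxo3 without Cre library 2 or 3 or Flpo library 3 or 4 (up to 0.0629, edgeR adjusted p). The call of Pik3cb held without any 1 library.

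Of 9 tested liver transcripts known to respond to insulin, 2 rose and 1 fell in Cre against GFP. Over all tested genes, 3.97% were higher and 5.58% lower in that comparison. Pck1, the gluconeogenic gene that insulin represses, rose 2.48-fold to 3411 ± 773 CPM in Cre livers, against 1374 ± 615 CPM in GFP livers (SD, n = 5 each, edgeR adjusted p = 0.00381). Igfbp1, another gene repressed by insulin, rose with a log2 fold change of 2.79 (edgeR adjusted p = 0.0166) but spanned 28.2 to 425.5 CPM in Cre libraries, against 15.9 to 31.8 CPM in GFP libraries. In Flpo against Cre both differed the other way, with Pck1 at -0.86 and Igfbp1 at -2.39 (edgeR adjusted p = 0.0241 and 0.0177). There, Pck1 did not pass without Cre library 1 or 5 (edgeR adjusted p = 0.0652 and 0.0507), with no low-count filter (edgeR adjusted p = 0.0659) or on log2(TPM + 1) (limma adjusted p = 0.0526). Igfbp1 did not pass without Cre library 5 (-1.58, edgeR adjusted p = 0.0647) or on log2(TPM + 1) (-1.65, limma adjusted p = 0.0616). G6pc, a further gluconeogenic gene, gave 0.68 in Cre against GFP (edgeR adjusted p = 0.128), or 0.84 without Cre library 4 (adjusted p = 0.0471), and Srebf1, a lipogenic regulator, gave -0.32 (edgeR adjusted p = 0.478). With the clock score as a covariate, 2 of the other pathway genes passed in Cre against GFP and 0 in Flpo against Cre. Of all 13905 tested genes, 84 were then higher and 179 lower in Cre against GFP, and 26 higher and 6 lower in Flpo against Cre. In Flpo against Cre the log2 fold changes with the covariate were -0.72 for Ceacam1, -1.20 for Pck1 and 0.76 for Tbc1d4 (edgeR adjusted p of 0.104, 0.399 and 0.561). These are close to or larger than those without it. Values that became smaller in size were 0.11 for Gab1, 0.17 for Foxo3, -0.80 for Socs3 and -0.40 for Trib3 (edgeR adjusted p of 0.934, 0.895, 0.626 and 0.87). Without Cre library 4 the Cre against GFP count was 10, and without Cre library 2 the Flpo against Cre count was 9.

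**Figure D5:**
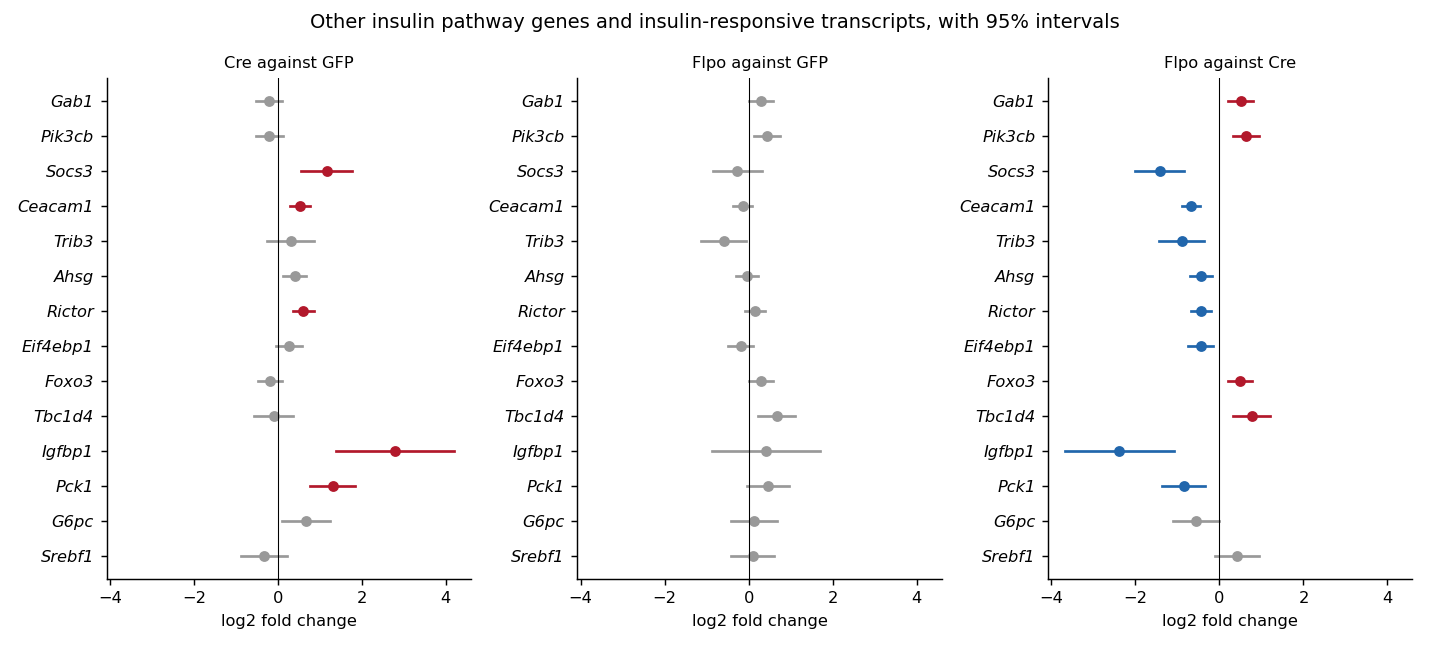
Log2 fold changes with 95% intervals of named other insulin pathway genes that were called in a comparison, with G6pc and Srebf1, coloured as in the plot of the 10 genes. Igfbp1 and Pck1 point in opposite directions in Cre against GFP and Flpo against Cre, and no gene is coloured in Flpo against GFP.

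The genes whose levels were most like those of the called members were found from log2 CPM after each group's mean was taken off, over 16 libraries, so that the likeness is within groups. The highest Pearson r was 0.887 with Snx33 for Irs2, 0.881 with Tmem62 for Grb14, 0.917 with 9130016M20Rik for Pik3r1 and 0.927 with Susd6 for Foxo1. Next came Msl3l2 (0.881) and Zfp763 (0.852) for Irs2, and Nsun2 (0.877) and Phyh (0.872) for Grb14. For Pik3r1 they were Pdlim5 (0.902) and Heatr5a (0.891), and for Foxo1 Sult1d1 (0.892) and Morc3 (0.891). These are the highest of all tested genes by construction, and the points share libraries and depth. Of the 12, Tmem62 differed between groups as its member did, at 0.69 in Cre against GFP (edgeR adjusted p = 0.0255) and -1.04 in Flpo against Cre (edgeR adjusted p = 0.000877). Sult1d1 was higher in Flpo than in Cre, at 1.12 (edgeR adjusted p = 0.00282), as Foxo1 was. The 3 genes most like Irs2 and the 3 most like Pik3r1 were not called in either Cre comparison.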

How the data were processed

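Liver RNA was extracted with a column kit and DNase, enriched for polyA and sequenced as paired reads of 150 bases, per the labels' protocols. Trimming used cutadapt and alignment to mm10 used STAR, per the submitters' processing notes. The authors deposited estimated counts for each gene, of which 31.7% of values were not whole, and TPM (abundance per gene length and library total). Their counting program, gene annotation and strand setting were not given in the sources used here. Counts were rounded to whole numbers.

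Groups and replicate numbers came from the titles. Counts were tested with edgeR 4.0.16 in R 4.3.3: filterByExpr (minimum count 10, 13905 genes), TMM, 1 robust quasi-likelihood fit of all 16 libraries, Benjamini-Hochberg adjustment over all genes, and calls at an adjusted p under 0.05. Intervals are 95% and use the fit's degrees of freedom. The fit was tested on simulated data. TPM ratios of 3 gene pairs, taken within each library, were compared by exact permutation tests, adjusted over 9 comparisons. No libraries were duplicates.

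All 10 members were named. From the list of 73 other pathway genes, up to 12 called genes per comparison and 9 fixed genes were named, and for each called member the 3 most like genes. Results for some of these genes are not reported here, though they stay in the counts. The members and lists were chosen with earlier results of these data known. Promoter windows are from RefSeq. Alternatives were other scalings, no low-count filter, DESeq2 1.42.0, limma 3.58.1 on log2(TPM + 1), only the 2 groups compared, a replicate block, a clock covariate and leaving out each library.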

Additional observations from a re-analysis of the deposited data

Results flagged for a closer look

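In 3 of 30 combinations of gene and group, 1 library stood far from the rest of its group by the size of its gap relative to the group's range (Dixon's 95% value), where chance flags about 1 in 20. Grb7 was at 83.2 CPM in Flpo library 2, against 63.5 to 68.9 CPM in the other Flpo libraries. Pik3ca was at 49.6 CPM in Cre library 4, against 20.7 to 22.1 CPM in the other Cre libraries. Foxo1 was at 52.5 CPM in GFP library 5, against 31.6 to 36.3 CPM in the other GFP libraries.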

How the results depend on the processing

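The calls of Irs2, Grb14 and Pik3r1 in both Cre comparisons and of Foxo1 in Flpo against Cre held under other scalings, no low-count filter, DESeq2, log2(TPM + 1), the fit of only the 2 groups and every leave-one-out. The clock score as a covariate was the exception: it left 2 of the 3 member calls in Cre against GFP, without Pik3r1, 0 of the 4 in Flpo against Cre, 0 other pathway genes in Flpo against Cre and 2 in Cre against GFP. The loss was not particular to these genes: over all 13905 tested genes the covariate left 84 higher and 179 lower in Cre against GFP. It left 26 higher and 6 lower in Flpo against Cre. The score lies with the Cre group, and the cause of the lost calls was not tested. Same-numbered libraries did not deviate together (1 of 15 pairs with a correlation over 0.1, range -0.156 to 0.117). Such correlations cannot show whether livers were matched, and the labels do not say that the numbers pair them. The replicate block changed no member call, and moved Irs2 in Flpo against GFP to -0.0377 and Mtor in Flpo against Cre to 0.0326. Only uncalled values reversed, and the cause was not tested beyond the shift of the all-gene median with scaling. With library totals, Cre against GFP gave -0.0032 for Grb7, -0.057 for Akt2, -0.103 for Ptpn1 and -0.0388 for Mtor, and Flpo against Cre gave 0.08 for Akt2 and 0.107 for Mtor. On log2(TPM + 1), Cre against GFP gave -0.021 for Insr, -0.0477 for Grb7, -0.00424 for Akt1, -0.0951 for Akt2, -0.121 for Ptpn1 and -0.0913 for Mtor, and Flpo against Cre gave 0.0735 for Akt1, 0.149 for Akt2 and 0.176 for Mtor. With the clock score, Pik3ca gave -0.709 in Flpo against Cre, -0.306 in Flpo against GFP and 0.402 in Cre against GFP, and Akt1 gave 0.00993 in Flpo against Cre. Leaving out 1 library at a time gave ranges that crossed 0 for Pik3ca (-0.0185 to 0.405 in Flpo against Cre, -0.0613 to 0.19 in Flpo against GFP, -0.384 to 0.133 in Cre against GFP), for Irs1 (-0.00319 to 0.174) and Irs2 (-0.119 to 0.301) in Flpo against GFP, for Ptpn1 (-0.00451 to 0.123 in Cre against GFP, -0.0854 to 0.0914 in Flpo against Cre) and for Mtor (-0.00504 to 0.192 in Cre against GFP, -0.114 to 0.0832 in Flpo against Cre). The count of other pathway genes ran from 6 to 10 in Cre against GFP and from 9 to 19 in Flpo against Cre. The log2 ratio of Irs2 to Irs1 ran from -1.52 to -1.04 in Flpo against Cre, from -0.131 to 0.203 in Flpo against GFP and from 1.06 to 1.54 in Cre against GFP. Grb14 to Insr ran from -0.825 to -0.708, from -0.509 to -0.299 and from 0.257 to 0.467 in the same order, and Akt2 to Akt1 from -0.0528 to 0.00685 in Flpo against GFP. With 1 library fewer, these exact tests lost calls in which the direction held, and a smaller group limits the smallest p. The lowest count behind a member was 175, reached by Irs1 and Irs2, and whether depth bears on their values was not tested.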
